A study of Mus musculus with 6 samples.

Results

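The Q741 truncation of the G-CSF receptor (CSF3R, where G-CSF is granulocyte colony-stimulating factor) was described here as an addition to the T618I mutation, by setting the library with T618I/Q741 against the library with T618I alone. Both came from Kit-positive bone marrow cells of C57BL/6 mice, which were selected with CD117 microbeads, stimulated with mouse SCF, FLT3, IL-3 and IL-6, transduced with retrovirus on retronectin, sorted for transduced cells and cultured overnight in the same cytokines. The other 4 libraries carried a control vector, the truncation W791 alone, the truncation Q741 alone, or T618I/W791, and no construct carried the unmutated receptor. The design text of the series calls the constructs with the membrane-proximal change leukemogenic and the truncations alone non-leukemogenic. Each construct had 1 library, and the labels name no separate animals or cultures, so the differences below have no replicate check and no test was made. The labels do not state how much of each receptor the cells carried.

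Of 23444 rows in the expression table, 11188 genes were kept, namely those with a symbol and with 1 FPKM or more in at least 2 of the 6 libraries. FPKM counts fragments per kilobase and is scaled to the depth of a library. At the edge of this filter, 4632427E13Rik was kept with a second-highest value of 1.00028 FPKM, and Csgalnact1 was left out at 0.999676 FPKM. Differences are given as T618I/Q741 minus T618I in log2(FPKM + 1), which understates the difference of genes with low values, and a gene was counted as higher or lower from 2-fold on that scale. A value in parentheses after a pair of FPKM values, or after a gene, is this log2 difference. Approximate depth was 26.8 M fragments with T618I/Q741 and 21.7 M with T618I. The endogenous mouse Csf3r gene (chr4:126024550-126044440 on mm10) was listed at 95.9 FPKM with T618I/Q741, 69.4 with T618I, 38.8 with T618I/W791, 56.7 with Q741, 52.8 with W791 and 53.1 with vector. It was highest with T618I/Q741, 1.38-fold over T618I, and no source used here says whether reads of the introduced receptor entered this value.

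The G-CSF receptor is a cytokine receptor without kinase activity of its own, which signals through JAK kinases, STAT3, STAT5 and the ERK pathway and drives the growth and maturation of neutrophils. T618I lies next to the membrane and activates the receptor without its ligand, and truncations of the cytoplasmic tail remove parts that recruit inhibitors such as SOCS3 and that take the receptor into the cell. Maturing neutrophils make their granule proteins in an order: primary (azurophil) granules in promyelocytes, secondary (specific) granules in myelocytes, and tertiary (gelatinase) granules after that.

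With T618I/Q741, 223 of 11188 genes (1.99%) were higher than with T618I and 164 (1.47%) were lower. At 4-fold or more, 26 genes were higher and 15 were lower. The median difference of all genes was -0.13, and 64.7% of genes lay below 0, so each gene list is read beside this median. Counts past 2-fold in a list are read beside the shares of 1.99% higher and 1.47% lower. Scaling by median ratios brought the median to -0.02 and changed the counts to 307 higher and 123 lower, and scaling to equal total FPKM gave 196 higher and 199 lower. The 5th and 95th percentiles of all differences were -0.69 and 0.63. Pearson's r between both libraries was 0.965 across genes, as a description with no test.

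**Figure D1:**
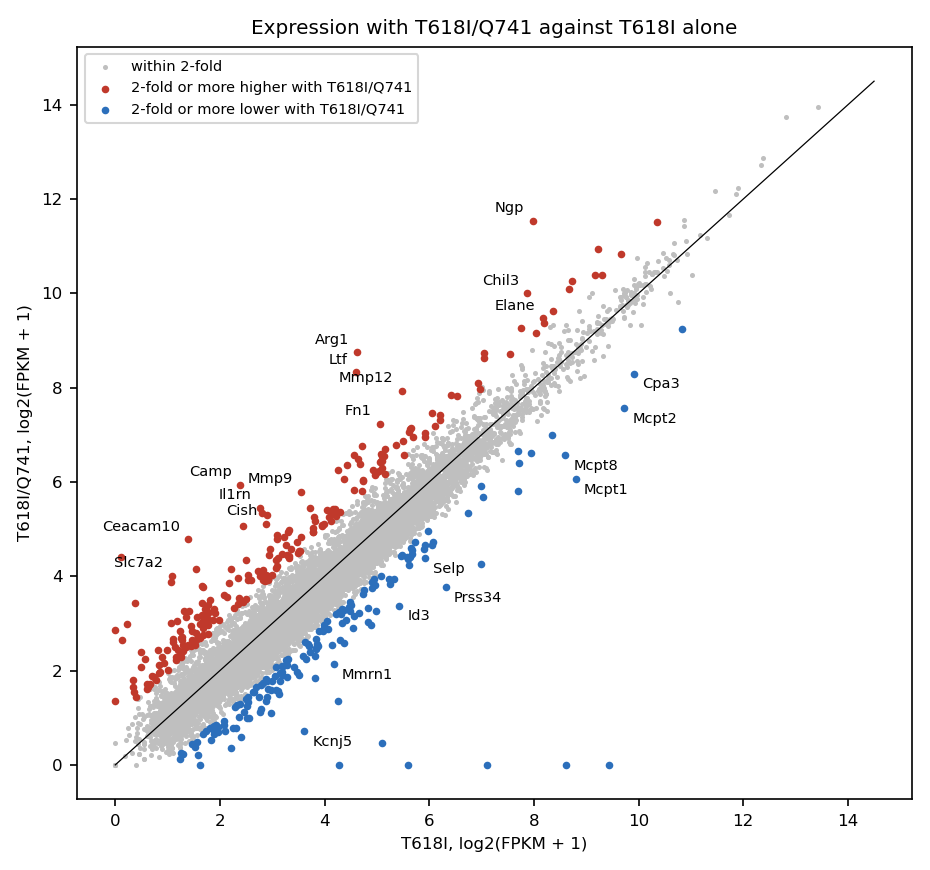
Each point is 1 of 11188 genes, with log2(FPKM + 1) with T618I on the x axis and with T618I/Q741 on the y axis; red points are 2-fold or more higher and blue points 2-fold or more lower with T618I/Q741. The 223 red points include Ngp, Ltf and Arg1 far above the diagonal, and the 164 blue points include Mcpt1, Mcpt2 and Cpa3 below it.

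Among the 6 libraries, T618I/Q741 had the highest value in 18.8% of all genes kept and the lowest value in 44.9%, and T618I had the highest value in 7.34%. T618I/Q741 lay 2-fold or more above all other libraries in 113 genes (1.01%) and 2-fold or more below them in 7 (0.0626%). For T618I the same counts were 25 genes above (0.223%) and 4 below (0.0358%).

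Genes of a list for secondary and tertiary granules were higher with T618I/Q741 as a group. The list also holds neutrophil genes whose products are not granule proteins, among them S100a8, S100a9, Padi4 and Ltb4r1. Of 31 listed genes in the table, 27 were kept, of which 15 were higher by 2-fold or more and 0 were lower. The median difference was 1.12 against -0.13 over all genes. T618I/Q741 was the highest of the 6 libraries in 25 of the 27. The summed level of the 31 genes was 48691 FPKM with T618I/Q741 and 28753 FPKM with T618I. Of these sums, S100a8 and S100a9 together, each within 2-fold, made up 29596 and 18260 FPKM.

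Ltf (chr9:111019271-111042767), which encodes the iron-binding lactoferrin of secondary granules, was at 320.0 FPKM with T618I/Q741, 23.3 with T618I, 95.8 with T618I/W791, 28.7 with Q741, 43.7 with W791 and 24.2 with vector. Ngp (chr9:110419747-110423012), neutrophilic granule protein, was at 2988 FPKM with T618I/Q741, 251 with T618I, 704 with T618I/W791, 206 with Q741, 244 with W791 and 151 with vector. Camp (chr9:109847379-109849617), which encodes the antimicrobial cathelicidin, was at 60.5 FPKM with T618I/Q741, 4.25 with T618I, 11.98 with T618I/W791, 10.5 with Q741, 14.3 with W791 and 9.81 with vector. T618I lay below the libraries without T618I for Ltf and Camp, and above them for Ngp. In all 3 genes T618I/Q741 was highest and T618I/W791 lay above T618I. Their differences from T618I were 3.72 for Ltf, 3.57 for Ngp and 3.55 for Camp, and the ratios of FPKM were 13.7, 11.9 and 14.2.

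The 250 bases upstream of the RefSeq start of Ltf (GRCm38.p6, chr9:111019042-111019291, plus strand) and Ngp (chr9:110419558-110419807, plus strand) are shown because these genes of one granule class had the widest differences of their list. By the gene coordinates given above, both genes start inside these windows, before the RefSeq start used here. The last capitalised match of Ngp lies past that earlier start. C/EBP factors are known to drive secondary granule genes. Capitals mark matches on either strand to the C/EBP letters TTGCNNAA and, in Ltf, to the GATA letters AGATAA.
Ltf: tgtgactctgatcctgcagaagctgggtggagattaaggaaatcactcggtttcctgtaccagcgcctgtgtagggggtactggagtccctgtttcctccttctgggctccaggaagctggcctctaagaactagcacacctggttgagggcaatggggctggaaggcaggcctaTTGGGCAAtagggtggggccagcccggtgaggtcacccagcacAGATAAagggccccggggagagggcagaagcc
Ngp: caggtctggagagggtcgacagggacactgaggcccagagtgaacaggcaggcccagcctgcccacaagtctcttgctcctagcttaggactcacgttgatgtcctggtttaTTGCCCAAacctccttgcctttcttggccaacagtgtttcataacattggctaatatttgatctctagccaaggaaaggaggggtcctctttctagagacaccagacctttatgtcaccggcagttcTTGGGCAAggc
The C/EBP letters occurred in 9 of the 24 genes of the granule list that matched a RefSeq promoter. They occurred in 7.57% of the 8505 kept genes that matched one. In the mast cell and basophil list, which lay in the other direction, they occurred in 6 of 27. They occurred in 12.99% of 154 higher genes and 9.48% of 116 lower genes, and a match is a description of the letters in this window only.

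Tertiary granule and later genes were also higher. Mmp9, the gelatinase that names the tertiary granule, was at 54.6 FPKM against 10.7 with T618I, 15.1 with T618I/W791, 0.296 with Q741, 1.21 with W791 and 0.591 with vector, a difference of 2.25. Retnlg, a resistin-like protein of neutrophils, was at 107 FPKM against 25.3 with T618I, 14.7 with T618I/W791, 0.102 with Q741, 0.838 with W791 and 0.294 with vector. Both were low in the 3 libraries without T618I, higher with T618I, and highest with T618I/Q741, whereas T618I/W791 had less Retnlg than T618I. Ceacam10, an adhesion molecule family member, was at 26.7 against 1.63 FPKM (3.39), Chil3, a chitinase-like protein, at 1028 against 233 FPKM (2.14), and Cd177, a neutrophil surface protein, at 88.98 against 24.03 FPKM (1.85). Mmp8, the neutrophil collagenase of secondary granules, was at 1344 against 573 FPKM and at 245 to 560.0 FPKM in the other libraries. Pglyrp1, a peptidoglycan recognition protein, differed by 1.59, Padi4, which citrullinates histones, by 1.51, Olfm4, a marker of a subset of neutrophils, by 1.33, and Lcn2, which sequesters bacterial siderophores, by 1.09.

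Not every gene of this list followed. Hp, which encodes haptoglobin, was at 386 against 399.7 FPKM (-0.05, or 0.08 under scaling by median ratios), and Cybb, the catalytic subunit of the phagocyte oxidase, at 242 against 211 FPKM (0.20). S100a8 and S100a9, the calprotectin subunits, were already at 11020.2 and 7239.5 FPKM with T618I and at 15815 and 13781 FPKM with T618I/Q741, differences of 0.52 and 0.93. The pair took 6.01% of all FPKM with T618I/Q741 and 3.91% with T618I.

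**Figure D2:**
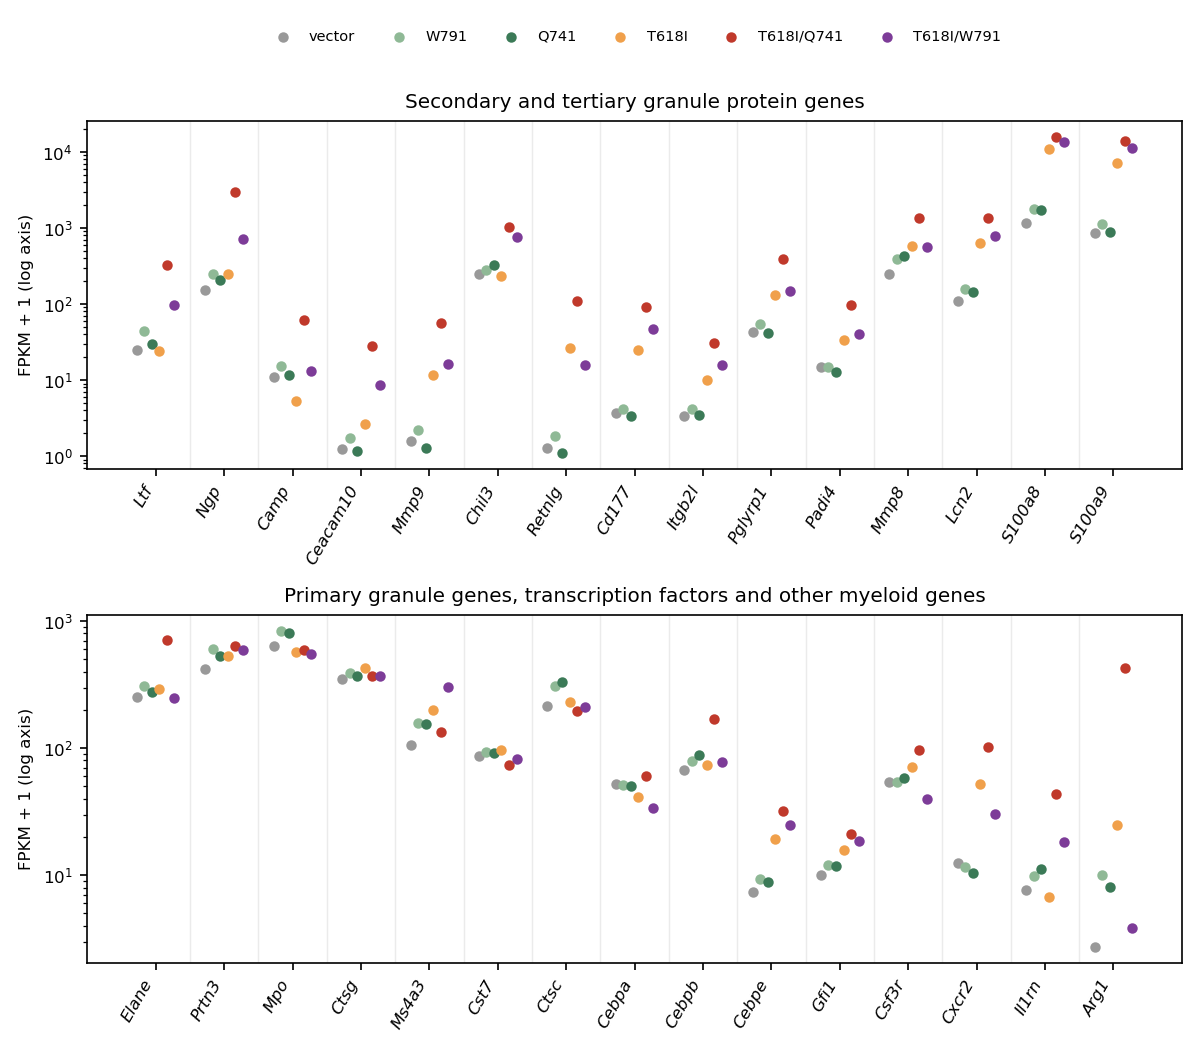
FPKM + 1 on a log axis for named granule, transcription factor and other myeloid genes, with 1 point per library. T618I/Q741 (red) is above T618I (orange) in each of the 15 genes drawn from the secondary and tertiary granule list. Mpo, Ctsg and Cst7 of the primary granule panel differ by less than 2-fold between these libraries.

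Primary granule genes did not share this difference. All 21 were kept, 1 was higher (4.76%, against 1.99% of all genes) and 0 were lower. The median of -0.11 was close to that of all genes (0.02 under scaling by median ratios). The gene past 2-fold was Elane, which encodes neutrophil elastase, at 714 FPKM with T618I/Q741, 289 with T618I, 247 with T618I/W791, 275 with Q741, 306 with W791 and 253 with vector. The other 5 libraries lay within 247 to 306 FPKM. Mpo, which encodes myeloperoxidase, was at 588 against 566 FPKM (0.05), Prtn3, proteinase 3, at 634 against 530.3 FPKM (0.26), and Ctsg, cathepsin G, at 371 against 423 FPKM (-0.19). Ms4a3, a gene of granulocyte and monocyte progenitors, was at 133 against 199 FPKM (-0.58) and at 301 FPKM with T618I/W791.

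Of the stefin A cluster, which encodes inhibitors of cysteine proteases, 9 of 10 genes were kept, with 5 higher, 1 lower and a median of 1.16. These copies are near-identical, so how reads were divided among them is uncertain. Their summed level was 12443 FPKM with T618I/Q741, 6819 with T618I, 11589 with T618I/W791 and 14.9 to 33.4 in the libraries without T618I. The sum differed by 0.87, less than the median of the single genes. Single members differed in both directions, with Stfa2 at 1959.5 against 601 FPKM (1.70) and Stfa1 at 1026 against 1553 FPKM (-0.60).

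Among 40 genes for neutrophil receptors and effectors, 39 were kept. Of these, 3 were higher (7.69%, against 1.99% of all genes) and 1 was lower (2.56%, against 1.47%). The median was 0.42, and 35 lay above the median of all genes. Il1rn, the secreted antagonist of the interleukin-1 receptor, was at 42.8 FPKM with T618I/Q741, 5.78 with T618I, 17.4 with T618I/W791, 10.2 with Q741, 8.92 with W791 and 6.66 with vector. Il1r2, the decoy receptor for interleukin-1, was at 226 against 91.8 FPKM (1.29) and Mmp25, a membrane-bound protease of neutrophils, at 4.41 against 0.986 FPKM (1.45). Both genes that oppose interleukin-1 were thus highest with T618I/Q741. Cxcr2, the chemokine receptor of mature neutrophils, was at 102 FPKM against 50.9 with T618I, 29.3 with T618I/W791, 9.36 with Q741, 10.6 with W791 and 11.5 with vector, a difference of 0.99 just under 2-fold. The lower gene was Hdc, histidine decarboxylase, which mast cells and basophils also express, at 20.3 against 46.6 FPKM (-1.16).

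Of 39 granulocyte and myeloid transcription factor genes, 38 were kept, with a median of 0.20. Among the 38, 3 were higher (7.89%, against 1.99% of all genes) and 1 was lower (2.63%, against 1.47%). Cebpb, which sustains granulocyte production under demand, was at 169.8 FPKM with T618I/Q741, 72.8 with T618I, 76.2 with T618I/W791, 87.1 with Q741, 78.6 with W791 and 66.8 with vector. It was highest with T618I/Q741, and the other 5 libraries lay within 66.8 to 87.1 FPKM. Cebpe, which is required for secondary granules, was at 30.97 against 18.2 FPKM (0.73) and at 6.42 to 8.34 FPKM without T618I. Cebpa, which starts granulocyte commitment, was at 58.8 against 40.4 FPKM (0.53), Gfi1, a repressor that favours neutrophils over monocytes, at 20.2 against 14.7 FPKM (0.43), and Spi1, which encodes PU.1, at 207 against 176 FPKM (0.23). Egr2, an early growth response factor, was at 23 against 6.76 FPKM (1.63) and Irf4 at 8.91 against 2.68 FPKM (1.43). Id3, an inhibitor of helix-loop-helix factors, was at 9.36 FPKM with T618I/Q741, 42.1 with T618I, 12.2 with T618I/W791, 56.2 with Q741, 56.1 with W791 and 2.45 with vector. It was low in T618I/Q741, in T618I/W791 and in vector, so its order followed no single mutation.

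The genes of the receptor's own pathway were past 2-fold in small numbers, at shares not below those of all genes. Of 48 signalling components, all kept, 2 were higher (4.17%, against 1.99% of all genes) and 1 was lower (2.08%, against 1.47%). The median was -0.0016, a value whose sign changed under 4 of the other settings. Cish, a STAT5 target that encodes an inhibitor of cytokine receptors, was at 33.6 FPKM with T618I/Q741, 6.35 with T618I, 15 with T618I/W791, 10.1 with Q741, 9.92 with W791 and 4.35 with vector. It was highest with T618I/Q741 and higher with Q741 than with vector as well (2.24 and 1.06). Its relatives were closer, with Socs1 at 18.4 against 11.3 FPKM (0.66) and Socs2 at 7.83 against 4.25 FPKM (0.75). Socs3, the inhibitor that binds the receptor's tail, was at 156 against 123 FPKM (0.35) and at 31.6 FPKM with T618I/W791. Stat3 was at 59.8 against 63.1 FPKM (-0.08), Stat5a at 12.4 against 14.3 FPKM (-0.18), and Ptpn6, which encodes the phosphatase SHP-1, at 128 against 149.8 FPKM (-0.22). The lower gene was Grap2, an adaptor, at 1.02 against 4.13 FPKM (-1.35). The other higher gene of this list was Elane, the neutrophil elastase gene that is also counted in the primary granule list.

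Of 30 JAK-STAT target genes, 29 were kept, 1 was higher (3.45%, against 1.99% of all genes) and 0 were lower. The median was 0.24. The STAT letters TTCNNNGAA occurred upstream of 5.19% of the higher genes, 3.45% of the lower genes and 6.10% of all kept genes with a promoter. Of 34 immediate early and feedback genes of the ERK pathway, 30 were kept, with a median of 0.29. Among the 30, 0 were lower and 4 were higher (13.3%, against 1.99% of all genes). Beside Egr2 these were Dusp6, which dephosphorylates ERK, at 37.2 against 15.98 FPKM (1.17), Phlda1 at 4.83 against 1.63 FPKM (1.15) and Jund, an AP-1 subunit, at 54.9 against 25.1 FPKM (1.10). Egr1, the classic immediate early gene, was at 159 against 120.5 FPKM (0.40).

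Apart from gene copies and small RNAs, the widest difference was in arginine metabolism. Arg1 (chr10:24915221-24927484), which encodes arginase 1, was at 429.7 FPKM with T618I/Q741, 23.7 with T618I, 2.87 with T618I/W791, 7.13 with Q741, 8.96 with W791 and 1.73 with vector. It stood 18.1-fold above T618I, the next highest library, and T618I/W791 was lower than T618I. Slc7a2, a transporter of cationic amino acids such as arginine, was at 15.2 FPKM with T618I/Q741, 1.12 with T618I, 0.940 with T618I/W791, 1.36 with Q741, 1.21 with W791 and 0.309 with vector. Both genes were thus far above all other libraries with T618I/Q741 (4.12 and 2.93). Ass1, which makes argininosuccinate, was at 22.96 against 11.2 FPKM (0.97), below the 30.8 FPKM with Q741. The other members lay within 2-fold, and the median of the 16 genes kept of 18 was -0.06 (0.06 under scaling by median ratios).

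Other genes with wide differences follow. Mmp13, a collagenase, was at 32.5 against 4.41 FPKM (2.63) and Mmp12, the macrophage elastase, at 244 against 43.4 FPKM (2.47). Fn1, which encodes fibronectin, was at 149.5 FPKM against 32.2 with T618I, 6.54 with T618I/W791, 39.4 with Q741, 40.9 with W791 and 26.9 with vector, and Tgm2, a transglutaminase, was at 93.96 against 22.7 FPKM. All of these were highest with T618I/Q741, as were 207 of all 223 higher genes (92.8%), against 18.8% of all genes kept. The 223 genes were chosen for high values with T618I/Q741, so this share follows in part from the choice. T618I/W791 had the lowest value of Mmp12, Mmp13, Fn1 and Tgm2. Further genes past 4-fold were Dennd2a (3.07), Gipr, the receptor for an incretin hormone (2.81), Myl10, a myosin light chain (2.54), Nov, a matricellular protein (2.53), and Pdpn, podoplanin (2.13), which were at 9.88, 13.7, 39.8, 5.29 and 12.8 FPKM with T618I/Q741 and at 0.296, 1.10, 6, 0.0902 and 2.14 with T618I.

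Several of the most different symbols belong to near-identical copies and are uncertain one by one. H2-Q7, H2-Q8 and H2-Q9, non-classical MHC class I genes, summed to 67.7 FPKM with T618I/Q741, 10.6 with T618I and 4.89 to 8.48 in the other libraries. Their sum was thus higher with T618I/Q741 than in any other library. Eif3j1 and Eif3j2, copies of a translation initiation factor gene, differed by 4.30 and -4.64, while their sum was 20.6 against 33.3 FPKM, a difference of -0.67. Klk1b11, of the kallikrein family, was at 6.98 against 0.169 FPKM (2.77), and Serpina3b, of the serpin family, at 1.57 against 18.2 FPKM (-2.90). Among 21 genes of small nucleolar RNAs, small nuclear RNAs and microRNAs that were kept, 2 were higher and 8 lower, often with a value of 0 in one library, and these are not described further.

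Genes of mast cells and basophils were lower with T618I/Q741 than with T618I. Of 34 in the table, 33 were kept, 0 were higher and 19 were lower (57.6%), with a median of -1.07 against -0.13 over all genes. Their summed level was 5955 FPKM with T618I/Q741, 8153 with T618I, 3363 with T618I/W791, 4666 with Q741, 5373 with W791 and 4759 with vector. Ifitm1, which differed by 0.24, made up much of each sum, at 4398 FPKM with T618I/Q741, 3716 with T618I and 1853 with vector. The order of the sums need therefore not hold for the other members. In bulk RNA, fewer cells of a type and less RNA per cell cannot be told apart.

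The list held genes with opposite orders across the series. Mcpt1, Mcpt2 and Mcpt4, mast cell chymases with similar sequences, summed to 293 FPKM with T618I/Q741, 1397 with T618I, 129 with T618I/W791 and 29.6 to 60.7 without T618I. Mcpt1 alone was at 65.4 FPKM with T618I/Q741, 444 with T618I, 12.3 with T618I/W791, 0.354 with Q741, 0.499 with W791 and 0.147 with vector. Here T618I was far above the rest, and T618I/Q741 lay between T618I and the libraries without it. Prss34 (chr17:25298394-25300165), a tryptase of basophils, was at 12.6 FPKM with T618I/Q741, 78.7 with T618I, 31.1 with T618I/W791, 363 with Q741, 371 with W791 and 393 with vector. Mcpt8 (chr14:56082166-56085273), the basophil protease, was at 93.7 FPKM with T618I/Q741, 386 with T618I, 109 with T618I/W791, 678 with Q741, 632 with W791 and 614 with vector. For both basophil proteases the libraries without T618I were highest and T618I/Q741 was lowest, with differences from T618I of -2.55 and -2.03. T618I was the highest of the 6 libraries in 10 of the 19 lower genes of this list. The same held for 106 of all 164 lower genes (64.6%), against 7.34% of all genes kept. Lower genes were chosen by their difference from T618I, so these shares follow in part from the choice.

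Of the 33 genes kept, 28 lay below 0 and 5 above it, and the genes named next that both cell types share were mostly lower. Cpa3, carboxypeptidase A3 of their granules, was at 313 FPKM against 959 with T618I, 295 with T618I/W791, 557 with Q741, 665 with W791 and 684 with vector. Fcer1a and Ms4a2, subunits of the high-affinity IgE receptor, were at 83.02 against 209.9 FPKM (-1.33) and 9.01 against 27.5 FPKM (-1.51). Kit, the receptor for stem cell factor on which the cells had been selected, was at 15.1 FPKM against 32.6 with T618I, 12.6 with T618I/W791, 23.3 with Q741, 30.1 with W791 and 34.5 with vector. It was lower in both double mutants than in the other 4 libraries. Gata2, a transcription factor of stem cells and mast cells, was at 23.2 against 49.5 FPKM (-1.06), Cd200r3, a basophil and mast cell receptor, at 8.63 against 30.5 FPKM (-1.71), and Il1rl1, the interleukin-33 receptor, at 25.4 against 66.5 FPKM (-1.35). Tpsb2, a mast cell tryptase, was at 119.7 against 157 FPKM (-0.39), within 2-fold. Mitf, a transcription factor of mast cells, was at 7.55 against 6.38 FPKM (0.21) and Il3ra, a subunit of the interleukin-3 receptor, at 17.96 against 16.3 FPKM (0.13), both slightly above T618I. Outside this list, further low differences were those of Kcnj5, a potassium channel (-2.90), Gpc4, a glypican (-1.97), Clca1 (-1.93), Hs3st1, a heparan sulfate sulfotransferase (-1.87), Prrt4 (-1.81) and Ufsp1 (-1.78). T618I was the highest library in all 6 of these genes, at 6.89 to 28.6 FPKM. The same held for 64.6% of all 164 lower genes, which were chosen by their difference from T618I.

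The upstream 250 bases of Prss34 (GRCm38.p6, chr17:25298144-25298393, plus strand), of Ms4a2 (chr19:11623720-11623969, minus strand) and of Gp5 (chr16:30310782-30311031, minus strand), a platelet glycoprotein gene described next, are shown because GATA factors are known to act in these lineages. Capitals mark matches on either strand to the GATA letters AGATAA and, near the 5′ end of Gp5, to the STAT letters TTCNNNGAA.
Prss34: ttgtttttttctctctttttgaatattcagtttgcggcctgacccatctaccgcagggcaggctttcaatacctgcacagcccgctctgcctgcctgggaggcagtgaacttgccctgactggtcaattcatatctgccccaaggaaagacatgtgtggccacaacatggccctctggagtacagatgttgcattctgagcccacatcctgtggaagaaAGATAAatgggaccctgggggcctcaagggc
Ms4a2: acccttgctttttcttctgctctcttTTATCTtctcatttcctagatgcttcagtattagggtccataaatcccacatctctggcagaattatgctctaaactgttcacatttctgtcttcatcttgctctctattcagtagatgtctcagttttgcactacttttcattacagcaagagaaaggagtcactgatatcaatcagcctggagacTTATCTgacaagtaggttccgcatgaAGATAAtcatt
Gp5: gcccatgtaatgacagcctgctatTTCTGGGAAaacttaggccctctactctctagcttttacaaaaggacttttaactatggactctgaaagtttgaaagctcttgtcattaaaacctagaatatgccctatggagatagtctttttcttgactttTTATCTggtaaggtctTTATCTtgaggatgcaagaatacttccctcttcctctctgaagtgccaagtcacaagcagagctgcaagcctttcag
The GATA letters occurred upstream of 7 of 27 mast cell and basophil genes with a promoter, 6 of 24 secondary and tertiary granule genes, 17.2% of the 116 lower genes, 8.44% of the 154 higher genes and 5.84% of all 8505 genes. No binding was measured, and nothing is read from these matches about the factor.

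Genes of megakaryocytes and platelets were lower as well. All 25 were kept, 10 were lower (40%) and 1 was higher, and the median was -0.93. T618I was the highest of the 6 libraries in 19 of the 25. Pf4, platelet factor 4, was at 904 FPKM with T618I/Q741, 1725 with T618I, 943 with T618I/W791, 202 with Q741, 549 with W791 and 409 with vector. Gp5, a subunit of the von Willebrand factor receptor, was at 23.1 FPKM with T618I/Q741, 59.03 with T618I, 35.98 with T618I/W791, 8.22 with Q741, 27.2 with W791 and 22.5 with vector. In both genes T618I was at the top, Q741 at the bottom and T618I/Q741 between them. Itga2b, the integrin subunit that binds fibrinogen, differed by -1.04, Selp, P-selectin of platelet granules, by -1.53, Clec1b, the platelet receptor CLEC-2, by -1.37, Gp1ba by -1.21 and Mmrn1, multimerin, by -2.04. Members above 0 were Cd9, a tetraspanin, at 278 against 253 FPKM (0.14), and Thbs1, thrombospondin 1, which was at 1089 FPKM against 406 with T618I, 505 with T618I/W791, 318 with Q741, 344 with W791 and 337 with vector. T618I/Q741 was the highest library for Cd9 and Thbs1.

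Of 35 stem and progenitor genes, 31 were kept, with a median of -0.38 (-0.25 with 5 FPKM added). Among the 31, 1 was higher (3.23%, against 1.99% of all genes) and 5 were lower (16.1%, against 1.47%). Cd34 was at 50.7 FPKM against 129 with T618I, 35.1 with T618I/W791, 71.3 with Q741, 83.3 with W791 and 66.2 with vector. Esam, an adhesion molecule of stem cells and megakaryocytes, was at 3.96 against 13.1 FPKM (-1.51), and the lower genes also included Kit and Gata2. T618I held the highest value of Cd34 and Esam in the series. Thy1 was the higher gene, at 13.4 against 3.52 FPKM (1.67).

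**Figure D3:**
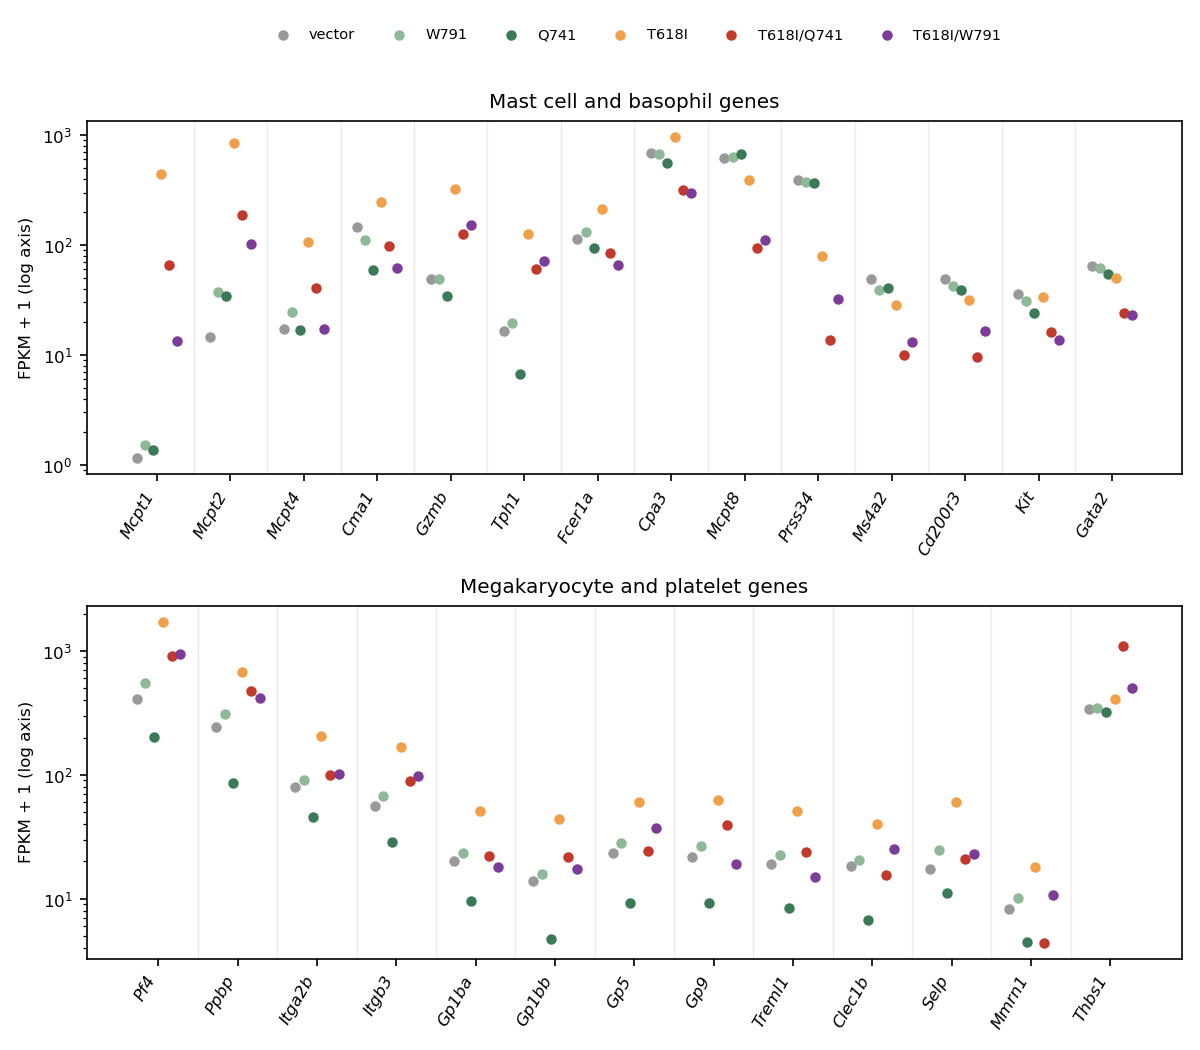
FPKM + 1 on a log axis for named mast cell, basophil, megakaryocyte and platelet genes, with 1 point per library. T618I/Q741 (red) is below T618I (orange) in each gene drawn except Thbs1, and Q741 alone is the lowest library for most platelet genes.

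Lists of markers of other blood lineages had medians closer to that of all genes. Of 29 erythroid genes, 27 were kept, with 1 higher and 1 lower (3.70% each, against 1.99% and 1.47% of all genes). The median was -0.44 (-0.07 over those at 5 FPKM in at least 2 libraries and -0.18 with 5 FPKM added before the logarithm). Klf1, a defining erythroid factor, was at 4.98 against 5.29 FPKM. Of 38 monocyte and macrophage genes, all kept, 3 were higher (7.89%) and 2 lower (5.26%), with a median of 0.09. Besides Fn1 the higher ones were Ccl6, a chemokine, at 666 against 291 FPKM (1.19) and Ctsl, cathepsin L, at 572 against 264 FPKM (1.11), and the lower ones were Cx3cr1, the fractalkine receptor, at 4.82 against 16.7 FPKM (-1.61) and Aif1 at 3.22 against 7.44 FPKM. Summed levels were 14972 FPKM with T618I/Q741 and 11668 with T618I for the monocyte list, 610.6 and 617.9 for the erythroid list, and 35.0 and 31.1 for 16 B lymphoid genes, of which 5 and 7 were listed at 0. The part of these marker lists, or of the mast cell and megakaryocyte lists, in the granule result was not tested.

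Interferon-stimulated genes were slightly higher with T618I/Q741. Of 50 genes, 47 were kept, 4 were higher (8.51%, against 1.99% of all genes) and 0 were lower. The median was 0.34 (0.22 with 5 FPKM added), and 42 lay above the median of all genes. Isg15, a ubiquitin-like modifier, was at 20.03 FPKM with T618I/Q741, 9.04 with T618I, 8.51 with T618I/W791, 11.96 with Q741, 11.4 with W791 and 25.5 with vector. Usp18, which removes it, differed by 1.23, and the antiviral genes Oasl2 and Oas1g by 1.08 and 1.12. All 4 were highest with vector, so T618I/Q741 stood above T618I and below vector. Of 41 genes for inflammatory cytokines and NF-kB targets, 39 were kept, with a median of 0.14. Among the 39, 7 were higher (17.9%) and 3 were lower (7.69%, against 1.47% of all genes).

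Genes that hypoxia induces, together with those of glycolysis, were higher with T618I/Q741. Of 38, 37 were kept, 6 were higher (16.2%, against 1.99% of all genes) and 0 lower. The median was 0.40, and 36 lay above the median of all genes. T618I/Q741 was the highest of the 6 libraries in 29 of them. Vegfa, the angiogenic growth factor, was at 92.99 FPKM with T618I/Q741, 33.2 with T618I, 16.6 with T618I/W791, 27.3 with Q741, 31.8 with W791 and 42.2 with vector. Egln3, an oxygen-sensing prolyl hydroxylase, was at 175 FPKM against 65.1 with T618I, 39.7 with T618I/W791, 45.8 with Q741, 57.8 with W791 and 44.5 with vector. In both genes T618I/W791 was the lowest library and T618I/Q741 the highest. Aldoc, a glycolytic aldolase, differed by 1.41, Ankrd37 by 1.25, P4ha2, a collagen prolyl hydroxylase, by 1.25, and Ndrg1 by 1.12. Ldha, lactate dehydrogenase, was at 715 against 843 FPKM (-0.24), the only member below the median of all genes.

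Cell cycle genes were lower by less than 2-fold, with few exceptions to the direction. Of 48 DNA replication genes, all kept, 0 were past 2-fold, all 48 lay below 0 and 47 lay below the median of all genes, with a median of -0.61. T618I/Q741 was the lowest of the 6 libraries in all 48, against 44.9% of all genes. Mcm2, a subunit of the replicative helicase, was at 22.02 FPKM with T618I/Q741, 38.97 with T618I, 50.96 with T618I/W791, 41.1 with Q741, 43.6 with W791 and 47.1 with vector. Of 46 mitosis genes, 0 were past 2-fold, the median was -0.55, and T618I/Q741 was the lowest library in 44. Birc5, survivin, was at 39.02 FPKM with T618I/Q741, 74.98 with T618I, 99.8 with T618I/W791, 82.4 with Q741, 79.1 with W791 and 80.8 with vector, and Mki67, the Ki-67 antigen, at 50.5 against 73.6 FPKM (-0.53). In Mcm2 and Birc5 T618I/W791 was the highest library and T618I/Q741 the lowest. Of the cyclin-dependent kinase inhibitors, Cdkn2a was at 6.18 against 1.37 FPKM (1.60) and at 6.13 FPKM with T618I/W791. The genes furthest below all other libraries included Mboat1, a membrane-bound acyltransferase (3.99 against 11.03 FPKM), Npl, a sialic acid lyase (4.497 against 13.3 FPKM), Dhx9, an RNA helicase (30.1 against 61.6 FPKM), and Hells, a chromatin remodeller (8.49 against 18.3 FPKM).

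**Figure D4:**
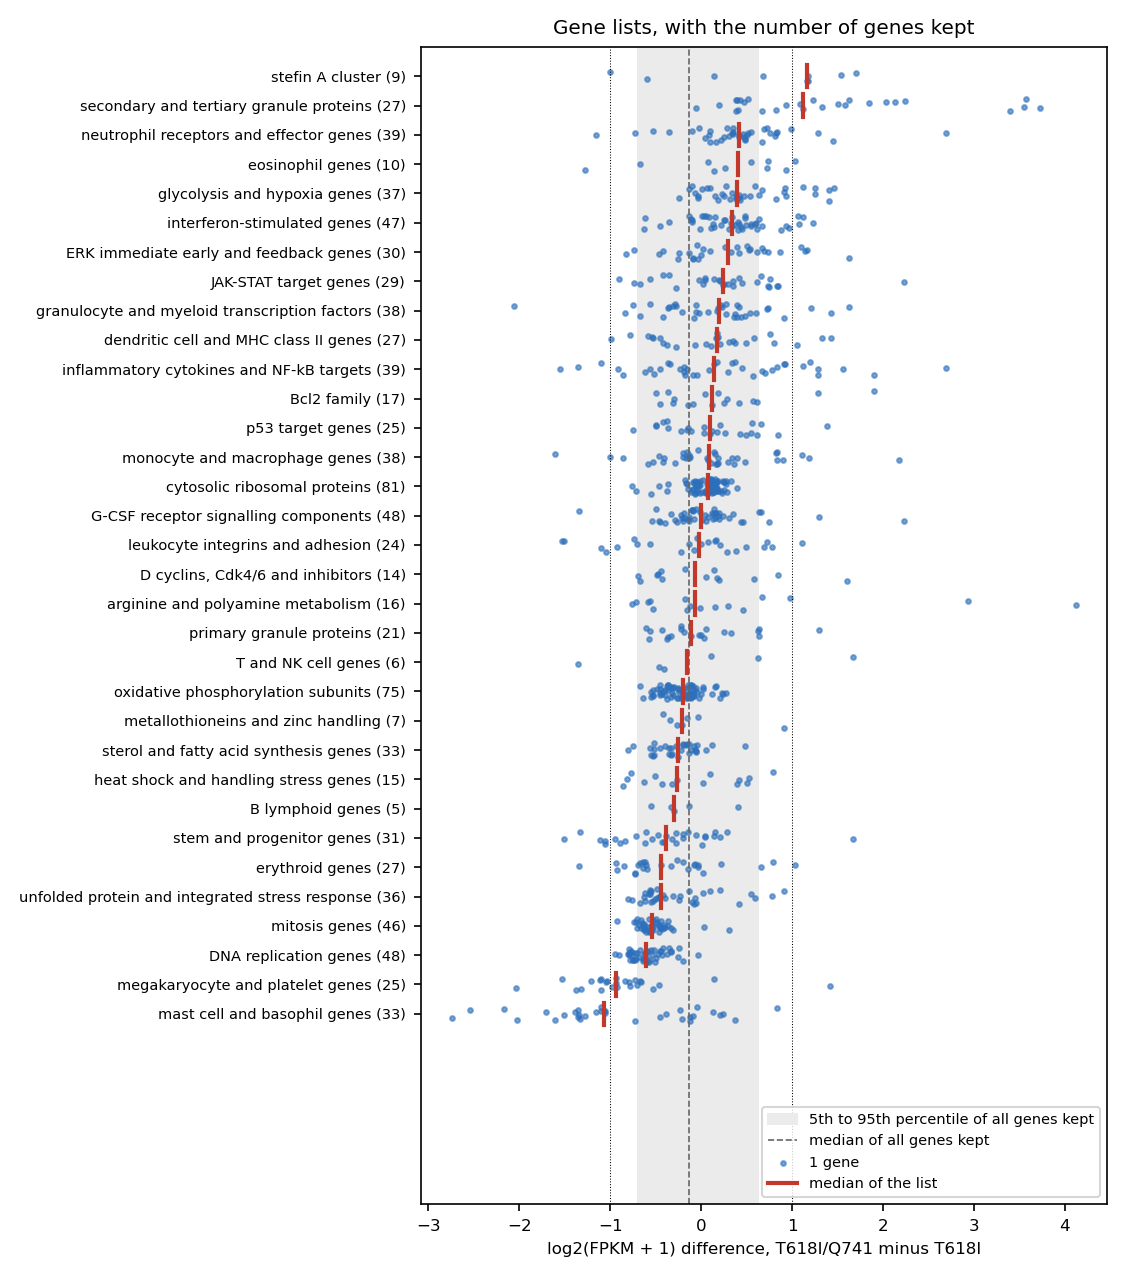
Each row is a gene list with its number of kept genes, each blue point is the log2(FPKM + 1) difference of 1 gene, T618I/Q741 minus T618I, and the red bar is the median. The shaded band spans the 5th to 95th percentile of all genes and the dashed line their median of -0.13; granule genes and stefins extend to the right, mast cell and megakaryocyte genes to the left, and DNA replication and mitosis genes sit together left of the dashed line.

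The same truncation without T618I gave fewer genes past 2-fold. Between Q741 and vector, which share no library with the comparison above, 17 genes (0.152%) were higher and 92 (0.822%) were lower. Of the 223 genes higher with T618I/Q741 than with T618I, 6 were also higher with Q741 than with vector (2.69% of the 223 and 35.3% of the 17), and 8 were lower. The 6 genes were Arg1, Cish, Eif3j1, Hbb-y, 2010005H15Rik and Snora81, named after their values were seen. Arg1 was at 7.13 FPKM with Q741 and 1.73 with vector, and Cish at 10.1 and 4.35. Across all genes Pearson's r between the differences was 0.09 and Spearman's rho was -0.03, given as a description over genes, which are not independent.

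Of the 164 lower genes, 22 were also lower with Q741 than with vector (13.4% of the 164 and 23.9% of the 92), and 4 were higher. They included Gp1ba, Gp1bb, Gp5, Clec1b and Treml1 of the megakaryocyte list and Cma1 and Tph1 of the mast cell list. The median of Q741 minus vector was -0.41 over the 164 lower genes, -0.03 over the 223 higher genes and -0.02 over all genes. For the megakaryocyte list it was -0.98, with 11 of 25 lower, close to the -0.93 seen on top of T618I. For the secondary and tertiary granule list it was 0.13, with 0 of 27 past 2-fold in either direction, and for the mast cell list -0.24, with 2 higher and 3 lower. Interferon-stimulated genes had a median of -0.45 with 6 lower, opposite in sign to the 0.34 on top of T618I. Whether the effect of the truncation differs with and without T618I was not tested, since each construct has 1 library.

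**Figure D5:**
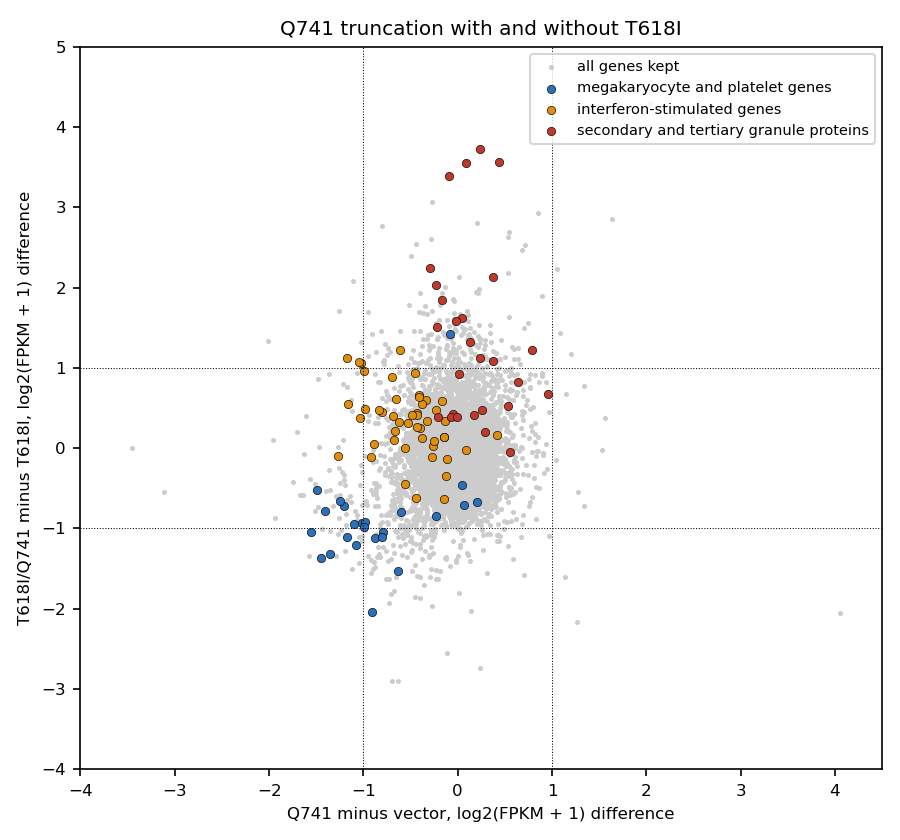
Each point is a gene, with the log2(FPKM + 1) difference of Q741 minus vector on the x axis and of T618I/Q741 minus T618I on the y axis; 11 genes, most of them small RNAs, lie outside the range drawn. Megakaryocyte genes (blue) lie in the lower left, granule genes (red) spread upward near 0 on the x axis, and interferon-stimulated genes (orange) lie mostly in the upper left.

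The other truncation on top of T618I is given beside these values, and since both differences use the T618I library no overlap or correlation was taken. T618I/W791 minus T618I had 112 genes higher (1.0%) and 346 lower (3.09%). The medians of T618I/Q741 and of T618I/W791 over T618I were 1.12 and 0.15 for secondary and tertiary granule genes, -1.07 and -0.89 for mast cell and basophil genes, and -0.93 and -0.76 for megakaryocyte genes. They were -0.61 and 0.48 for DNA replication genes, 0.40 and -0.42 for hypoxia and glycolysis genes, 0.29 and -0.75 for ERK genes, 0.09 and -1.03 for monocyte genes, and -0.44 and 1.23 for erythroid genes, where the first of these came close to 0 under other settings. Among single genes, Arg1 differed by 4.12 with T618I/Q741 and -2.68 with T618I/W791, Fn1 by 2.18 and -2.14, Socs3 by 0.35 and -1.92, Ltf by 3.72 and 1.995, and Cpa3 by -1.61 and -1.70. The medians of mast cell and megakaryocyte genes were below 0 in both differences. Since both subtract the 1 T618I library, the second is no separate check of the first. T618I was the highest of the 6 libraries in 19 of 25 megakaryocyte genes and 11 of 33 mast cell and basophil genes. The medians of DNA replication and hypoxia genes had opposite signs.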

How the data were processed

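RNA was measured in 6 libraries, 1 per construct, made with a stranded mRNA kit per the labels' protocols. The table that the authors deposited gives each gene's symbol and 1 value for each library and states no unit. The deposited values were taken as FPKM, the unit of Cufflinks, which the submitters' processing notes name together with TopHat and mm10. For their versions, the annotation and the use of strand, nothing is given in the sources used here. Columns of both double mutants carry abbreviations, and their letters matched them to the sample titles. Rows with a date in place of a symbol (27) were left out, which left 23417 rows, of which 12229 were under the filter of 1 FPKM in at least 2 libraries.

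Differences of log2(FPKM + 1) were computed without further scaling, with a pseudocount of 1 and a threshold of 2-fold, and checked on simulated data. Depth is not stated and was estimated from the steps between low values of 4867 genes with a single transcript in GENCODE M21, as 25.15 to 27.6 M fragments for T618I/Q741 and 19.85 to 22.95 M for T618I over the fragment lengths tried, and between 21.45 and 42.8 M in the others. Of kept symbols, 95.0% matched GENCODE M21, from which the mm10 coordinates come. Promoters are the 250 bases before the RefSeq start (GRCm38.p6), matched by symbol for 8505 genes and searched on both strands. The genes named in the text are, at 5 FPKM or more in the higher library, the 15 highest and 15 lowest differences, the 10 furthest above and below the other libraries, 3 highest and 3 lowest of each list, Csf3r, and members named for their role; predicted genes and small RNAs were left out of the rule. The comparison, the 33 gene lists and the rule were chosen with earlier results of these data known. Alternatives tried were other pseudocounts, filters, scalings and fold thresholds. No test was made, since no construct had more than 1 library. Tools were Python 3.11.15, pandas 2.3.3, numpy 2.4.6 and matplotlib 3.10.9.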

Additional observations from a re-analysis of the deposited data

Results flagged for a closer look

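For 9 genes T618I/Q741 differed from T618I by 2-fold or more in one direction and Q741 differed from vector by 2-fold or more in the other. With 1 library per construct, none of these differences between backgrounds was tested. Ifi27l2a, an interferon-stimulated gene, differed by 1.33 on top of T618I and by -2.01 against vector, Isg15 by 1.07 and -1.03, and Oasl2 by 1.08 and -1.05. All 3 had their highest value with vector. Clec10a, a lectin of dendritic cells and macrophages, differed by 1.33 and -1.02. H2-Q9 (2.09 and -1.11), Stfa2 (1.70 and -1.26) and Mcpt2 (-2.17 and 1.27) have near-identical copies, so their single values are uncertain. Id3 differed by -2.06 and 4.05, with 2.45 FPKM in vector against 56.2 in Q741 and 56.1 in W791. Snora28, a small nucleolar RNA, differed by -5.60 and 6.06 and was listed at 0 with T618I/Q741 and with vector.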

How the results depend on the processing

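Counts of genes depended on the fold threshold and on the value added before the logarithm. Adding 0.1 FPKM gave 339 higher, 348 lower and 54 below all other libraries, and 5 FPKM gave 103 higher, 51 lower, 62 above and 1 below all other libraries. Requiring 5 FPKM in at least 2 libraries gave 143 higher genes and an eosinophil median of -0.20. Scaling by median ratios gave 177 genes above all other libraries, and equal total FPKM gave 14 below. A threshold of 1.5-fold gave 632 higher and 970 lower genes, and 4-fold gave 26 and 15. Among 33 list medians, 8 changed sign under at least 1 setting, and the erythroid median was between -0.63 and -0.07. The mast cell median was -0.86 with 5 FPKM added and -0.94 under scaling by median ratios, and without a filter the granule median was 0.93 and the stefin median 0.92. Of 209 named genes, 23 came under 2-fold under at least 1 setting and 6 changed sign. No paired analysis was possible because each construct has 1 library and the labels carry no replicate numbers. Differences near the 2-fold threshold, low values and values of 0 are the least certain, since library noise could not be estimated.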

Other observations

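Other gene groups showed small differences with T618I/Q741 against T618I. Of 75 subunits of oxidative phosphorylation, 0 were past 2-fold, and the median was -0.20 against -0.13 over all genes. Under scaling by median ratios these were -0.07 and -0.02. T618I/Q741 was the lowest of the 6 libraries in 63 of the 75, and in 44.9% of all genes. The 81 cytosolic ribosomal protein genes had a median of 0.08, with 71 above the median of all genes. The 36 genes of the unfolded protein and integrated stress response had a median of -0.44 (-0.31 under scaling by median ratios). T618I/Q741 was the lowest library in 23 of them. The 33 genes of sterol and fatty acid synthesis had a median of -0.25 (-0.14 under scaling by median ratios). Of 25 p53 target genes 1 was higher, namely Gdf15, a stress-induced cytokine, at 16.2 against 5.63 FPKM (1.38), and the median was 0.10. Of 17 Bcl2 family genes 2 were higher, both from the near-identical Bcl2a1 copies, which together summed to 29.8 against 11.1 FPKM.

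Eosinophil genes gave no clear direction. Of 15, 10 were kept, 1 was higher and 1 was lower, with a median of 0.41. Prg2, the major basic protein of eosinophil granules, was at 32.7 against 26.99 FPKM and at 53.5 to 70.5 FPKM without T618I, and Epx, eosinophil peroxidase, was at 1.71 against 0.324 FPKM. Both were lower in T618I/Q741 and in T618I than in the libraries without T618I. The embryonic beta-like globin gene Hbb-y was at 5.53 against 1.41 FPKM and listed at 0 with vector. Outside the filter, 146 genes reached 1 FPKM with T618I/Q741 alone and 49 with T618I alone.

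The remaining lists were close to the median of all genes. Of 31 dendritic cell and MHC class II genes, 27 were kept, 3 were higher and 0 lower, with a median of 0.18, against a median of -0.69 with 9 lower for Q741 minus vector. Of 25 leukocyte integrin and adhesion genes, 24 were kept, 1 was higher and 4 were lower, with a median of -0.02 (0.10 under scaling by median ratios). The 14 kept genes of D cyclins, their kinases and inhibitors had a median of -0.06 (0.06 under scaling by median ratios), the 15 heat shock and handling stress genes -0.27, and the 7 metallothionein and zinc handling genes -0.21. Only 6 of 22 T and NK cell genes and 5 of 16 B lymphoid genes were kept, with medians of -0.15 (0.02 without the filter) and -0.29 (0.03 at 5 FPKM in at least 2 libraries).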
